A study of Drosophila melanogaster with 4 samples.

Results

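Enriched regions of Ser5-phosphorylated RNA polymerase II were described on chromosome 4 and on the heterochromatin sequences of the Drosophila melanogaster genome. They were all regions with a score above 0 in the combined list of the series that lay on chromosome 4, on a sequence whose name ends in Het, or on the unplaced sequences U and Uextra. This gave 223 of the 5309 clusters of that list, 78 on chromosome 4, 85 on the Het sequences and 60 on U. Uextra held none. The clusters of the 2 replicate lists on the same sequences, 177 in replicate 1 and 169 in replicate 2, were described beside them, and 172 and 168 of these overlapped a combined-list cluster.

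The cells were CME-W1-Cl.8+, a line also called Clone 8, which the labels trace to the dorsal mesothoracic disc of larvae in the third instar, labelled male. No treatment is given. Chromatin was immunoprecipitated with ab5131, a rabbit polyclonal antibody to the polymerase's C-terminal repeat carrying phosphoserine 5, and sequenced (ChIP-seq) in 2 libraries, beside 2 libraries of input DNA. The input libraries had no region list here, and depth is unknown because no read counts were given. Whether the 2 ChIP libraries came from separate cultures is not stated, so their spread may be technical only.

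Chromosome 4 is the small dot chromosome of the fly. It carries marks of heterochromatin, such as methylation of histone H3 at lysine 9 and the protein HP1a, yet its distal arm holds a dense set of active genes, and the protein POF binds many of them. Pericentric heterochromatin is rich in repeats and poor in genes, and the genes it does hold, such as light and rolled, are transcribed within it. Serine 5 of the repeat is phosphorylated as the polymerase begins a transcript, so the mark is known for promoters and the first part of genes. In the assembly used, FlyBase release 5, the Het sequences are named for the chromosome they belong to, whereas U joins scaffolds that had no place on any chromosome and Uextra collects further small scaffolds. A distance between clusters on U is therefore not a distance along a chromosome. Where heterochromatin is named as a class below, it means the Het sequences with U and Uextra. Whether the scaffolds of U are heterochromatin was not tested.

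Per length of sequence, chromosome 4 was densely marked in both libraries and the heterochromatin sequences sparsely. The lengths behind these densities and the covered shares include unsequenced gaps and repeats. How much of each sequence could take placed reads was not tested. On chromosome 4, replicate 1 listed 74 clusters and replicate 2 listed 66, or 54.7 and 48.8 per Mb of sequence (51.8 ± 4.18, SD, n = 2). On all Het sequences together, replicate 1 listed 64 clusters and replicate 2 listed 62, or 6.90 and 6.68 per Mb (6.79 ± 0.152, SD, n = 2). On U the numbers were 39 and 41, or 3.88 and 4.08 per Mb. The values of chromosome 4 and of the Het sequences differed by far more than the spread between the libraries. That spread does not measure how much stretches of sequence differ from each other. The 5 large arms had 41.3 and 39.5 clusters per Mb.

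The share of sequence covered by clusters separated them further. Clusters covered 366 kb of chromosome 4 in replicate 1 and 319 kb in replicate 2, which is 27.1% and 23.6% of it (25.3 ± 2.46%, SD, n = 2). They covered 2.08% and 1.91% of the Het sequences (2.00 ± 0.123%, SD, n = 2) and 1.07% and 1.11% of U. The large arms were covered to 15.6% and 15.3%. Chromosome 4 was thus covered to a greater extent than most stretches of the large arms. Of 117 windows of 1 Mb tiled along these arms, 3 in replicate 1 and 7 in replicate 2 were covered at least as much as chromosome 4. In number of clusters chromosome 4 was less extreme, since 16 and 30 of the 117 windows held at least as many per Mb. With 2 libraries an exact permutation test cannot give a two-sided p below 0.5, so differences between sequences are set against the spread between the libraries and were not tested further.

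**Figure D1:**
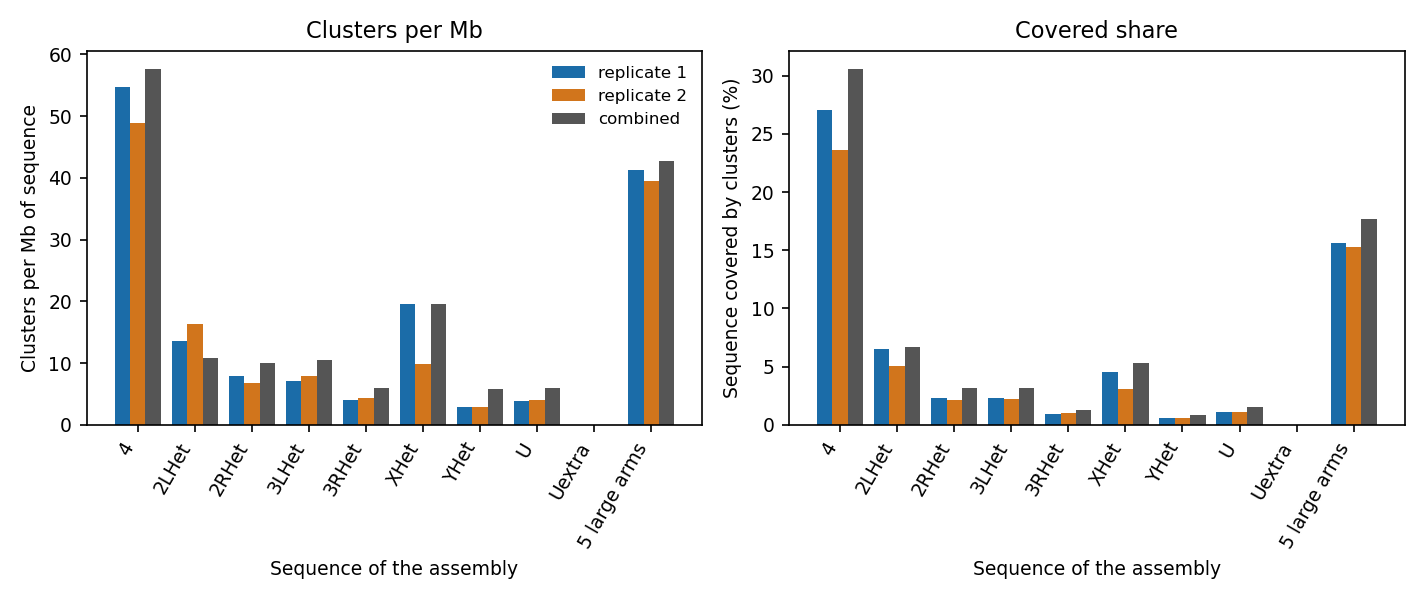
Clusters per Mb (left) and percent of each sequence covered by clusters (right) on chromosome 4, each heterochromatin sequence, U, Uextra and the 5 large arms together. Bars show each replicate list and the combined list. Chromosome 4 reaches 27.1% and 23.6% in the replicates, no heterochromatin sequence exceeds 6.69% in any list, and Uextra is empty.

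The heterochromatin sequences differed among themselves. 2LHet was covered to 6.51% in replicate 1 and 5.05% in replicate 2, with 5 and 6 clusters. XHet was covered to 4.54% and 3.03%, with 4 and 2 clusters. These are the short sequences, 0.369 and 0.204 Mb long, so a single cluster moves their values. 2RHet and 3LHet, with 26 and 22 and with 18 and 20 clusters, were covered to 2.28% and 2.09% and to 2.31% and 2.19%. 3RHet, of similar length, was covered to 0.946% and 1.01%, with 10 and 11 clusters. YHet held 1 cluster in each replicate, at the same place, and was covered to 0.587% and 0.578%. The order of 2LHet above 2RHet and 3LHet, and of these above 3RHet, was the same in both libraries. XHet lay between 2LHet and 2RHet in both, but its spread between the libraries was large.

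Clusters on chromosome 4 were somewhat wider than those of heterochromatin. The median width was 2.86 kb on chromosome 4 in both replicates, and 2.28 and 2.32 kb on Het and U together. The large arms had medians of 2.53 and 2.61 kb. In the upper range the difference was larger. On chromosome 4, 9 of 74 clusters of replicate 1 and 8 of 66 of replicate 2 were wider than 10 kb, or 12.2% and 12.1%, against 4.56% and 4.51% over each whole list. On Het and U, 2 of 103 clusters of replicate 1 and none of 103 of replicate 2 were that wide. In the combined list 9 of 78 clusters on chromosome 4 were wider than 10 kb (11.5%, Wilson 95% interval 6.19 to 20.5%), 5 of 145 on Het and U (3.45%, 1.48 to 7.82%) and 6.33% of the whole list. The interval of chromosome 4 reached down to the value of the whole list, and such intervals treat clusters as independent, which neighbours are not. These 9 held 184 kb, or 44.4% of the covered bases of chromosome 4, against 26.5% held by such clusters over the whole list.

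The 5 widest clusters of chromosome 4 were between 17.4 and 43.6 kb wide in the combined list. The widest ran from 892492 to 936112 and was broken into 4 clusters in replicate 1 and 3 in replicate 2, so it was not a single domain in either library. The next, 28.5 kb from 1323762 to 1352230, was 3 and 4 clusters in the replicates. It ran 373 bases past the stated end of the sequence at 1351857, and its last part in replicate 2 ran 63 bases past. The clusters from 78940 to 98130 and from 562876 to 580296, 19.2 and 17.4 kb wide, were each single in both replicates. The cluster from 668024 to 685756, 17.7 kb wide, was a pair of clusters in each. Broad unbroken stretches on chromosome 4 were therefore at most 33.6 kb wide in replicate 1 and 22.8 kb in replicate 2.

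In heterochromatin the 5 widest clusters were between 10.1 and 17.1 kb wide, and each was broken up in at least 1 replicate. This was common for such wide clusters. Over the whole list, 203 of the 336 clusters wider than 10 kb were split or missing in at least 1 replicate. On chromosome 4 it was 6 of 9. On 2RHet, the cluster from 86408 to 103480 was single in replicate 1, at 17.0 kb, and 3 clusters in replicate 2. On 2LHet, the cluster from 20138 to 37114 was 2 and 3 clusters. The others lay on 2RHet from 291876 to 304732, on 3LHet from 2500430 to 2510868 and on U from 1177730 to 1187874. Their scores lay between 0.68 and 1.19 in the combined list, whose median was 1.03. In the combined list the wide clusters of heterochromatin were thus not its high scoring ones. In the replicates their parts varied more. The highest scoring part of each ranged from 0.86 to 2.08 in replicate 1 and from 0.70 to 1.86 in replicate 2. The medians of these lists were 1.18 and 1.19.

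Scores on chromosome 4 were low or middling, densely marked as it was. The score is a value the authors gave each region on a scale that they do not state. Sequences were compared by it only within a list, as the score itself or as a percentile of that list's scores, with the highest near 100. Where scores of a site in several lists are printed together, whether the lists share a scale is not known. On chromosome 4 replicate 1 had a median percentile of 42.1, replicate 2 one of 42.4 and the combined list one of 40.2. No cluster of chromosome 4 reached the top 10% of scores in any of the 3 lists, against 10% of each whole list by construction. In the combined list this was 0 of 78, which allows a share of up to 3.85% when the limit is set at 3 counts, or up to 4.69% by the Wilson 95% interval used for the other shares, and both limits cover counting error only. The best rank of a chromosome 4 cluster was 968 in replicate 1, 761 in replicate 2 and, for the combined list, 1045. Stretches of the large arms with no such cluster were few. Windows of 1 Mb that held none numbered 2 of 117 with replicate 1, 4 with replicate 2 and 2 with the combined list, and the median window held 4. At the low end, 31 of the 78 clusters (39.7%, Wilson 95% interval 29.6 to 50.8%) were in the lowest 25% of combined-list scores, but 26 of 74 (35.1%, 25.2 to 46.5%) in replicate 1 and 18 of 66 (27.3%, 18.0 to 39.0%) in replicate 2. The intervals of the combined list and of replicate 1 lay above the 25% of each whole list, and that of replicate 2 did not.

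U stood at the other end. Its median percentile was 62.4 in replicate 1, 64.1 in replicate 2 and, with the combined list, 61.0. In the top 10% of scores were 6 of 39 clusters of U in replicate 1 (15.4%, Wilson 95% interval 7.25 to 29.7%), 8 of 41 in replicate 2 (19.5%, 10.2 to 34.0%) and 13 of 60 in the combined list (21.7%, 13.1 to 33.6%). Only the last 2 of these intervals lie above the 10% of the whole list. Of the 13 in the combined list, 7 were found in both replicates and 6 in neither. On the large arms 493 of 513 such clusters were found in both. The Het sequences were close to chromosome 4 at the median, at the 43.3rd percentile in replicate 2 and the 41.2nd in replicate 1. Of their clusters, 2 of 64 in replicate 1 (3.1%, Wilson 95% interval 0.861 to 10.7%) reached the top 10%. This held for 1 of 62 in replicate 2 (1.6%, 0.285 to 8.59%) and 5 of 85 in the combined list (5.9%, 2.54 to 13.0%). Each share was below the 10% of the whole list. Of the 5, only 1 was found in both replicates and 3 were found in neither.

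The highest scoring sites found in both replicates were picked by these same scores. They illustrate the contrast between chromosome 4 and U and are no further support for it. On chromosome 4 the highest 10 scored between 1.40 and 1.78 in the combined list, ranks 1045 to 1773 of 5309. They were wide, from 2.44 to 19.2 kb with a median of 8.25 kb. The first, from 690012 to 693332, scored 1.78 in replicate 1, 2.07 in replicate 2 and 1.78 when combined. The second, from 1291340 to 1293778, scored 1.80, 1.89 and 1.77. The third, from 327664 to 337188, was 9.53 kb wide and scored 1.84, 1.69 and 1.75. The others began at 78940, 197922, 1042850, 714324, 62844, 645158 and 562876, in order of score. All but the one at 62844 were a single cluster in both replicates.

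In heterochromatin with U counted in, the highest 10 scored between 1.99 and 3.87, ranks 9 to 753. They were narrow, from 2.22 to 4.83 kb with a median of 2.81 kb. Of these, 9 lay on U and 1 on 3LHet, and all 10 were single clusters in both replicates. The site on U from 9709786 to 9712860 scored 3.82 in replicate 1, 3.90 in replicate 2 and 3.87 when combined. The site on U from 9177520 to 9179922 scored 3.43, 3.38 and 3.45. On U from 8054970 to 8057750 the scores were 2.59, 3.34 and 2.94, a rank of 241 in replicate 1 and 30 in replicate 2. On 3LHet, the cluster from 2396694 to 2401522, 4.83 kb wide, scored 3.07, 2.63 and 2.80. The rest of the 10, all on U, began at 7541866, 9093842, 9514844, 8031866, 9340084 and 9287750. The lowest scoring of these overlapped the range of chromosome 4 in replicate 2, where the one at 9287750 scored 1.58.

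Wider clusters tended to score higher on chromosome 4, and on U this was weak. Across the clusters of chromosome 4, Spearman's rho of width and score was 0.58 in replicate 1 (74 clusters) and 0.52 in replicate 2 (66 clusters). It was 0.65 and 0.62 on the large arms. On U it was 0.27 in replicate 1 (39 clusters) and 0.11 in replicate 2 (41 clusters), and on the Het sequences 0.49 (64 clusters) and 0.27 (62 clusters). The Het value of replicate 1 was thus near that of chromosome 4 and the Het value of replicate 2 was not. The clusters of a list share a library and a threshold, and neighbours are not independent, so these values are a description.

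**Figure D2:**
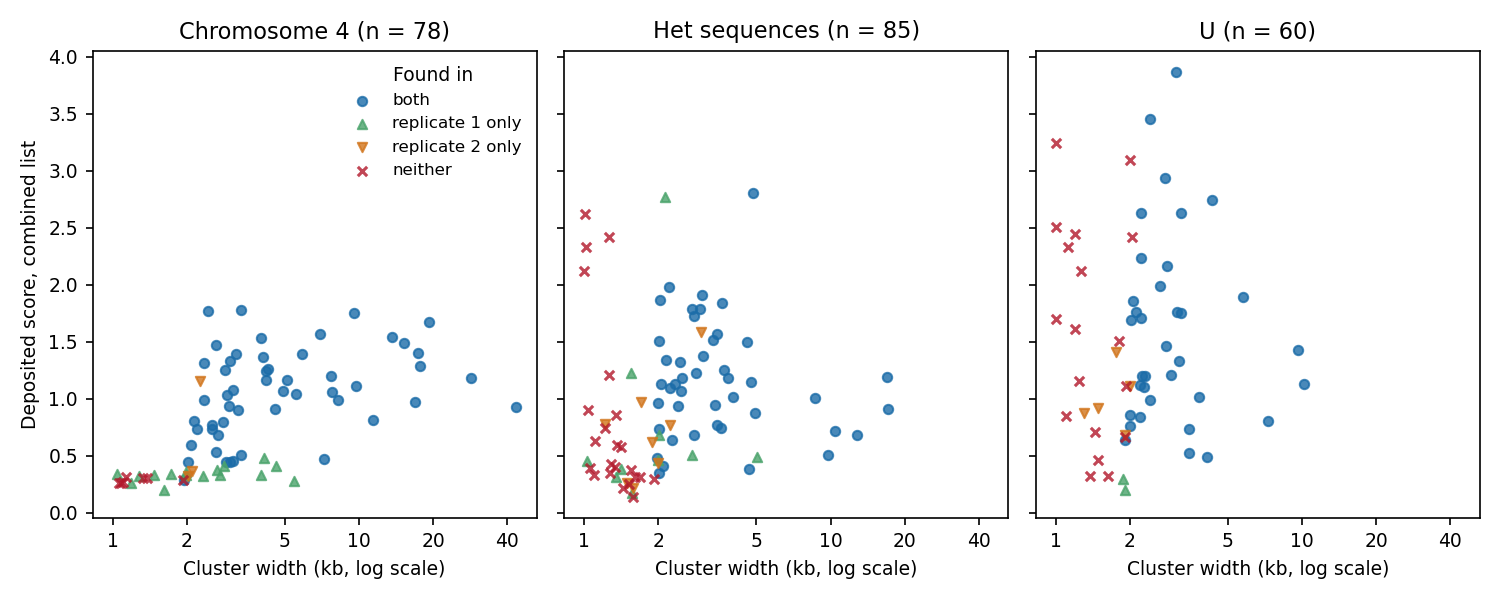
Width (log axis) and deposited score of the 223 combined-list clusters on chromosome 4, the Het sequences and U, each point being 1 cluster and its symbol showing in which replicates it was found. On chromosome 4 no score exceeds 1.78, and all but 1 of the clusters missing from a replicate score below 0.5. On Het and U, clusters found in neither replicate include narrow ones with scores up to 3.24.

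Neighbouring clusters on chromosome 4 were close together. The median gap between neighbours was 4.24 kb in replicate 1 and 8.82 kb in replicate 2, against 5.49 and 6.15 kb on the large arms, so chromosome 4 was below the arms in one library and above them in the other. On the Het sequences the median gap was 26.7 and 39.5 kb. Gaps above 50 kb made up 6.85% and 7.69% of those on chromosome 4, 39.7% and 46.4% on the Het sequences and 11.4% and 12.0% on the large arms. Gaps under 1 kb made up 19.2% and 16.9% of the gaps on chromosome 4, near the 17.1% and 15% of each whole list, and 8.62% and 10.7% on the Het sequences. In the combined list, however, 25 of the 77 gaps on chromosome 4 (32.5%) were under 1 kb, against 18.3% of the whole list. When clusters within 1 kb were joined, 45 of the 78 combined-list clusters of chromosome 4 (57.7%) fell into 20 blocks of several, against 32.6% of those on the large arms and 15.2% on Het and U. The longest such block ran over 51.5 kb, from 889796 to 941314, and joined 4 clusters. Within the replicate lists the difference from the arms was smaller. Blocks of several held 33.8% and 33.3% of the clusters of chromosome 4, against 31.3% and 28.0% on the large arms. On Het and U they held 13.6% and 9.71%.

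Along chromosome 4, clusters were spread over the whole sequence after an empty start. The first cluster began at 62797 in replicate 1 and 63123 in replicate 2, which left 62.8 and 63.1 kb without a cluster. Of the 13 full windows of 100 kb, none was empty, and the mean share covered in the replicates ranged from 10.9 to 43.6% with a median of 24.5%. The most covered was the 10th, from 900001 to 1000000, at 46.1% in replicate 1 and 41.2% in replicate 2. The second, from 100001 to 200000, was covered to 43.5% and 34.3%, and the first to 33.8% and 32.5%, although its first 62.8 kb held no cluster in replicate 1. By the mean of the replicates the least covered were the 12th, from 1100001 to 1200000, at 15.3% and 6.53%, the fifth, at 12.6% and 11.7%, and the ninth, at 18.6% and 15.9%. The eighth, at 19.8% and 15.5%, was close to the ninth and below it in replicate 2. The short last stretch of 51.9 kb was covered to 43.6% and 46.2%. The replicates differed by up to 9.22 percentage points in a window, less than the range between windows.

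**Figure D3:**
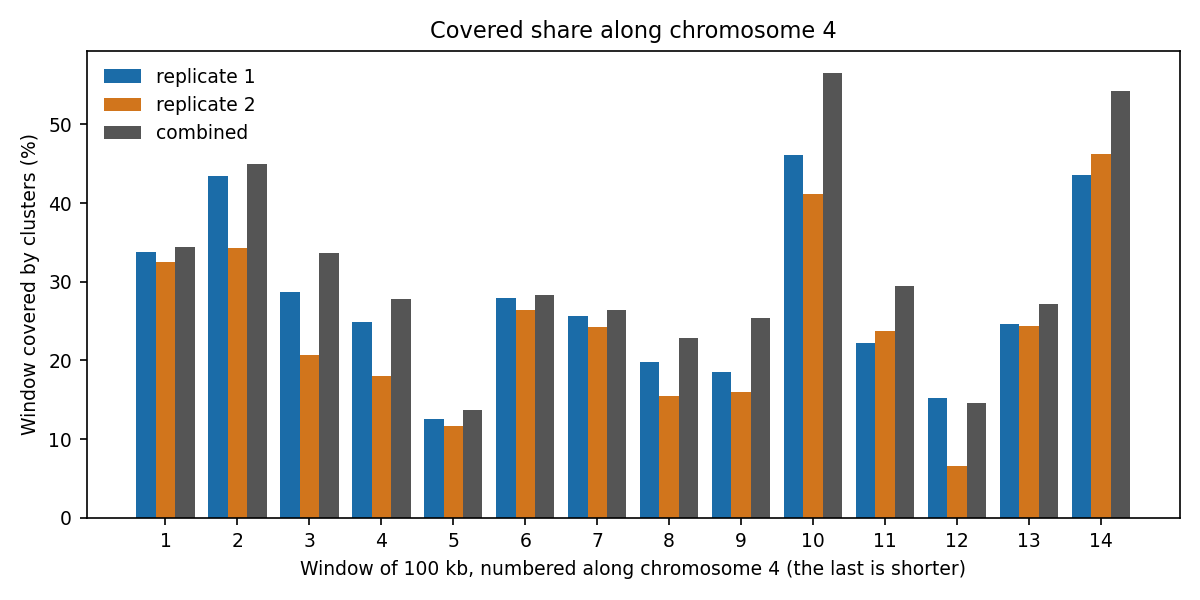
Percent of each 100 kb window of chromosome 4 covered by clusters, in order along the chromosome, for the replicate lists and the combined list. By the mean of the replicates, windows 10, 2 and 1 are the most covered of the full windows and windows 12, 5 and 9 the least, with window 8 close to window 9 and below it in replicate 2 and the combined list.

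The longest stretches between clusters on chromosome 4 in the combined list were 80.5 kb from 382041 to 462493, 67.0 kb from 809221 to 876211, 65.0 kb from 740055 to 805009, 52.1 kb from 1082503 to 1134603 and 44.4 kb from 283273 to 327663. Replicate 2 had no cluster in any of the 5. Replicate 1 had 1 that lay in or reached into the first and 2 for the fourth, and none for the other 3. A single cluster, from 805010 to 809220, separated the second from the third of these stretches. It scored 1.49 in replicate 1 and 1.32 in replicate 2. No gene is named here, because the gene table at hand follows release 6, whose positions differ.

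Agreement of the replicates was lower on both kinds of sequence than on the large arms, and in different ways. Of the 223 combined-list clusters, 131 (58.7%, Wilson 95% interval 52.2 to 65.0%) were found in both replicates, that is, shared at least 1 bp with a cluster of each. Another 28 were found in replicate 1 only, 16 in replicate 2 only and 48 in neither. Over the whole list 79.8% were found in both. On chromosome 4, 52 of 78 were found in both (66.7%, 55.6 to 76.1%). On the Het sequences it was 44 of 85 (51.8%, 41.3 to 62.1%) and on U 35 of 60 (58.3%, 45.7 to 69.9%). All 3 intervals end below the 80.8% of the large arms. Among the arms the X was lowest, with 798 of 1064 found in both, a share within the interval of chromosome 4. 4 of 4 clusters were found in both on 2LHet, 16 of 33 on 2RHet, 13 of 27 on 3LHet, 8 of 15 on 3RHet, 2 of 4 on XHet and 1 of 2 on YHet.

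On chromosome 4 the missing clusters were mostly absent from replicate 2. Of the 78 clusters, 16 were found in replicate 1 only, 3 in replicate 2 only and 7 in neither. Over the whole list the shares were 6.39% for replicate 1 only, 4.33% for replicate 2 only and 9.44% for neither. From the replicates' side, 58 of the 74 clusters of replicate 1 overlapped one of replicate 2 (78.4%, Wilson 95% interval 67.7 to 86.2%), against 91.6% of the whole list. In the other direction 62 of 66 did (93.9%, 85.4 to 97.6%), against 94.6% of the whole list. Replicate 1 covered 1.15 times as much of chromosome 4 as replicate 2, and 1.02 times as much of the large arms. The ratio was 1.06 on the X, 1.09 on the Het sequences together and 0.957 on U. Among single Het sequences it ranged from 0.933 on 3RHet to 1.49 on XHet. On the X, 87.3% of replicate 1 clusters overlapped one of replicate 2, and 94.9% did in the other direction. Of the 46 pairs on chromosome 4 that overlapped one to one, 32 were wider in replicate 1, against 47% of all such pairs. The starts of these pairs differed by a median of 130 bp and the ends by 86 bp, against 59 and 54 bp on the large arms.

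The clusters of chromosome 4 that were not found in both had low scores, with 1 exception. The 16 found in replicate 1 only had a median score of 0.34 and none exceeded 0.48, and the 7 found in neither had a median of 0.29 and a highest score of 0.31. That exception was a cluster of replicate 2 only, from 1279958 to 1282224, which scored 1.15 in the combined list and 1.41 in replicate 2. All 26 had a median of 0.33, near the 0.34 of such clusters on the large arms. Of these, 15 (57.7%, Wilson 95% interval 38.9 to 74.5%) were within 1 kb of a cluster found in both, against 28.6% of such clusters over the whole list. When clusters within 1 kb were joined in each list, 45 of the 53 resulting blocks of chromosome 4 were found in both replicates (84.9%, 72.9 to 92.1%), against 84.9% on the large arms and 84.1% of all blocks. On Het and U the same step left the share at 76 of 133 (57.1%, 48.6 to 65.2%).

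In heterochromatin few of the clusters that were not found in both lay beside one that was, and some had high scores. Only 3 of 66 lay within 1 kb of one found in both (4.55%, Wilson 95% interval 1.56 to 12.5%), against 28.6% over the whole list. Few clusters there had any neighbour that close. Gaps under 1 kb made up 8.70% of the combined-list gaps on Het and U, against 18.3% of the whole list. Of the 41 found in neither replicate, 9 were in the top 10% of combined-list scores (22.0%, 12.0 to 36.7%). Among all clusters found in neither the share was 5.79%. U had 6 of 18 (33.3%, 16.3 to 56.3%). The Het sequences had 3 of 23 (13.0%, 4.54 to 32.1%), an interval that includes 5.79%. Above the median score were 17 of the 41, of which 12 lay on U and 5 on the Het sequences. Over the whole list this held for 48 of the 501 found in neither. The 9 in the top 10% were from 1.00 to 2.04 kb wide. The highest, on U from 2644318 to 2645318, was 1.00 kb wide and scored 3.24, which put it at rank 37 of 5309. It was followed by U from 9974240 to 9976240, with a score of 3.09, and 3RHet from 1717888 to 1718898, with a score of 2.62. The highest scores of 2RHet, 3RHet and YHet in the combined list all belonged to clusters found in neither replicate. On 2RHet it was 2.42, from 3241486 to 3242742, and on YHet 2.12, from 71864 to 72864. Of the 41, 21 were narrower than 1301 bp, the narrowest cluster of either replicate list, close to the 51.3% of all clusters found in neither. For these a lower width limit in the combined list and an added site cannot be told apart. A 2.14 kb cluster on 3LHet from 665716 to 667850 was found in replicate 1 only, with a score of 3.02 there and a rank of 84 in that list.

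**Figure D4:**
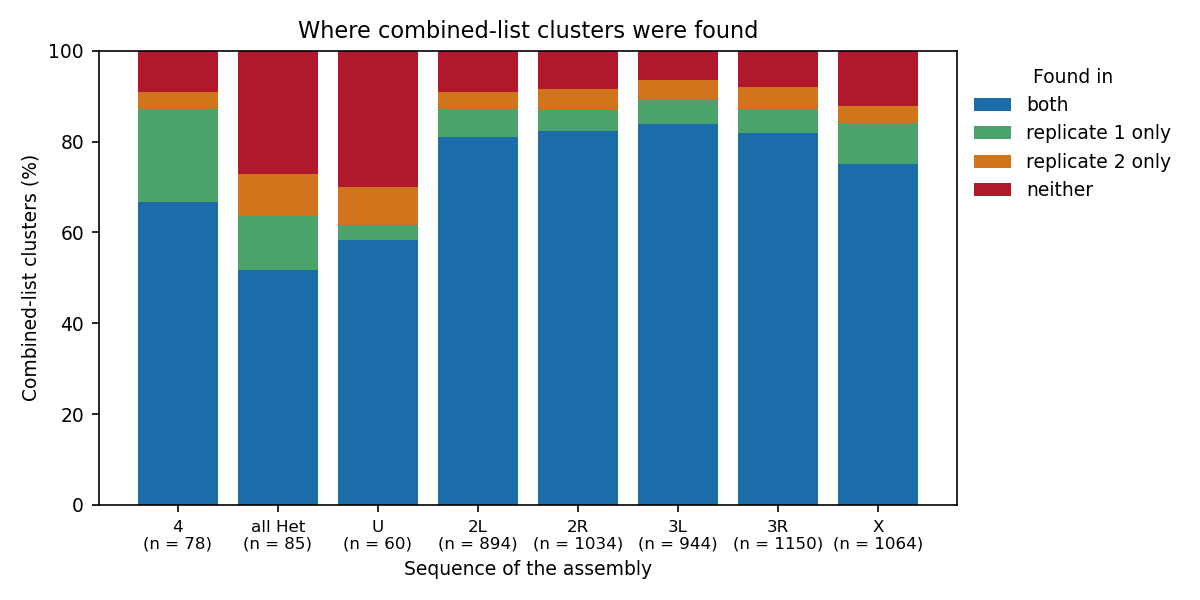
Percent of combined-list clusters found in both replicates, in 1 of them or in neither, on chromosome 4, all Het sequences, U and each large arm, with the number of clusters under each bar. Found in both were 66.7% on chromosome 4, 51.8% on the Het sequences and 58.3% on U, and the share found in replicate 1 only is largest on chromosome 4.

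Clusters found in both replicates were mostly single clusters with similar score percentiles in each. In heterochromatin, 70 of the 79 clusters found in both were a single cluster in each replicate (88.6%, Wilson 95% interval 79.7 to 93.9%), against 87.1% over the whole list, and on chromosome 4, 43 of 52 were (82.7%, 70.3 to 90.6%). On Het and U, one-to-one pairs differed by a median of 51.5 bp in start and 62.5 bp in end, and 35 of the 76 pairs matched within 100 bp at both edges, near the 42.9% of all pairs. On chromosome 4 this held for 12 of 46 pairs, and this difference was not tested. Spearman's rho of the score percentiles in the replicates was 0.94 over the 46 pairs of chromosome 4, 0.88 over the 76 pairs of Het and U and 0.95 over the 3805 pairs of the large arms. The Jaccard index of covered bases was 0.78 on chromosome 4, 0.66 on the Het sequences, 0.79 on U and 0.84 on the large arms. How reads from repeats were placed was not tested.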

How the data were processed

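Region lists of 2 ChIP-seq libraries and a combined list were used. 4 samples, 2 ChIP and 2 input, were grouped and numbered by title. The submitters' processing notes name Bowtie 0.12.7 as the aligner, and positions refer to FlyBase release 5 per the file headers. Regions carry a score deposited by the authors. Not given in the sources used here are its scale, the region caller and threshold, the use of input, the treatment of reads in repeats and the making of the combined list. All 5309 combined-list starts were even, as were 49.5% of those of replicate 1.

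Regions with a score above 0 were kept, and none on these sequences scored below. Width, score percentile, covered share, gaps and overlap of at least 1 bp were computed with Python 3.11.15, numpy 2.4.6, pandas 2.3.3 and scipy 1.17.1, and figures with matplotlib 3.10.9. Sequence lengths, from the file headers, include unsequenced gaps. Shares have Wilson 95% intervals, which cover counting error only. Interval functions were tested on simulated data. Regions were named by position: per class the 10 highest scores found in both replicates, the 5 widest, the highest of each sequence, those past a sequence end, and on chromosome 4 the 5 longest gaps and the 3 most and least covered windows. Clusters found in neither or 1 replicate were named with their values known. Members and measures were chosen with earlier results of these data known. Alternatives were a stricter score threshold, joined clusters, other overlap rules, other definitions of heterochromatin, each list alone and wider windows.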

Additional observations from a re-analysis of the deposited data

How the results depend on the processing

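No paired analysis was possible because the results come from no test and the input libraries have no list. Over 8 results, 33 of 55 alternative values moved by less than the spread or stayed within the interval, 22 moved further and none reversed. These counts do not measure robustness, because part of them was fixed in advance. For a mean of 2 replicates, leaving 1 out always moves the value by less than their SD. Leaving out Uextra, which held no cluster, cannot change width, score, gaps or agreement. Agreement and the share of the most covered window have no sign to reverse. Comparing chromosome 4 with Het, U and Uextra together, the ratio was 24.3 for clusters per Mb, 41.5 for covered share, 1.25 for median width and 0.0944 for median gap, and the difference in median score percentile was -7.56. With Het alone these became 7.62, 12.7, 1.21, 0.191 and -0.0261, and without Uextra the first pair became 9.72 and 16.6, as Uextra adds length and no cluster. With Het alone the score difference was thus near 0. The gap ratio of 0.0944 includes distances on U, which are not distances along a chromosome. The upper 50% of scores gave 19.5 for clusters per Mb, 1.62 for width, 0.221 for gaps and 32.0% rather than 43.6% for the most covered window of chromosome 4. Joining clusters within 1 kb gave 21.3 for clusters per Mb, 1.34 for width, -4.40 for score and 84.9% rather than 66.7% for agreement on chromosome 4. The combined list gave 19.2 for clusters per Mb, 36.1 for covered share and 1.43 for width, and windows of 200 kb gave 36.01% for the most covered. Leaving out each replicate gave 22.9 to 25.7 for clusters per Mb, 39.4 to 43.6 for covered share, 1.23 to 1.26 for width, -9.47 to -5.66 for score, 0.0718 to 0.117 for gaps, 41.2 to 46.1% for the most covered window, and agreement of 70.5 to 87.2% on chromosome 4 and 62.8 to 63.4% in heterochromatin, where it was 54.5% with both. Needing only 1 replicate raises agreement by construction. Elsewhere the cause was not tested. Without read counts, depth limits which weak clusters were listed to an unknown degree.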

Other observations

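Among the unplaced scaffolds joined in U, clusters lay mostly in the later part of the sequence and scored higher there. In the first 5 Mb replicate 1 had 11 clusters with a median score percentile of 48.0, and in the rest it had 28 with a median of 77.3. Replicate 2 had 11 with a median of 39.9 and 30 with a median of 71.2. The order of scaffolds in U is not an order along a chromosome, and the split at 5 Mb was chosen after the values had been seen.

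Clusters found in neither replicate often shared their exact score with another cluster of the combined list (tolerance 1e-09). This held for 15 of the 41 in heterochromatin (36.6%), for 84 of the 453 on the large arms (18.5%) and for none of the 7 on chromosome 4. Among clusters found in both replicates it held for 3 of 79 in heterochromatin (3.80%) and 58 of 4108 on the large arms (1.41%). The score of 3.24 of the highest such cluster on U also belonged to 4 clusters on 2L, 3L and 3R, all between 1.00 and 1.19 kb wide and found in neither replicate. The score of 2.42 was shared by the cluster on 2RHet from 3241486 to 3242742 and one on U from 9585496 to 9587538. Why scores repeat was not tested.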
